A study of Mus musculus with 6 samples.

Results

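ETS factors are transcription factors that share a DNA-binding domain, the ETS domain, which reads a GGAA core. The PEA3 group (Etv1, Etv4 and Etv5) is transcribed in response to FGF signalling through ERK, and Etv4 and Etv5 are widely used as readouts of FGF activity in embryonic tissues, the eye among them. Capicua (Cic) is a repressor that binds octamers in the control regions of PEA3 genes and is released when ERK is active. Other ETS factors are controlled by ERK mainly at the protein level. Ets1 and Ets2 are phosphorylated next to their pointed domain, and the ternary complex factors Elk1, Elk3 and Elk4 are phosphorylated while bound beside serum response factor. Etv6 is a repressor, and Gabpa is the DNA-binding subunit of GABP, a regulator of housekeeping and mitochondrial genes.

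The 10 ETS genes considered were Etv1, Etv4, Etv5, Etv6, Ets1, Ets2, Elk1, Elk3, Elk4 and Gabpa, taken as all probe sets that the platform annotation gives to 1 of these symbols alone. This gave 27 probe sets for 9 genes, of 18193 genes with such a probe set on the array. Etv1 had none, because its 3 probe sets each carry a second symbol, and no Etv1 value is reported. Of the 27 probe sets, 18 passed the filter on low intensity (a mean over the 6 arrays equal to an intensity of 15.1) and were tested, and they belonged to 8 genes. Both Etv4 probe sets were among the 9 that did not pass.

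Expression was measured on Affymetrix arrays in laser-microdissected optic fissure, the ventral groove of the optic cup, from C57BL/6J mouse embryos at E11.5. Both alleles of Fgfr1 and of Fgfr2 carried loxP sites in all 6 samples. The 3 controls were Six3Cre-;Fgfr1fx/fx;Fgfr2fx/fx, and the 3 FGFR mutants were Six3Cre+;Fgfr1fx/fx;Fgfr2fx/fx, in which Cre acts in cells of the early eye field and forebrain and not in mesenchyme, vessels or blood cells of the sample. The numbers 8711, 9216 and 9266 each belong to a control and to a mutant. Separate embryos are not named in the labels for samples of a group, so p-values cover the array-to-array spread alone, which may be technical, and 3 arrays per group limit the precision. In bulk tissue, fewer cells of a type and less RNA per cell cannot be told apart.

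The mutant 8711 array stood apart. The 3′/5′ ratio of its Gapdh control probe sets, a sign of RNA length, was 93.6, where the rest had 4.26 to 15. It correlated with the remaining arrays at 0.836 on average, and they at 0.917 to 0.932. Differences that move by over 1.5 times without it are given both ways. Of 11 neural retina progenitor markers measured, 10 passed the filter, Six6, Sox2 and Pax6 among them, as did 8 of 9 ventral optic cup markers. Periocular mesenchyme markers (9 of 9 passed), macrophage markers (11 of 11) and endothelial markers (11 of 13) were present too, so the samples held other cell types besides optic cup. The targeted genes had log2 differences, mutant minus control, of -1.08 for the brightest Fgfr1 and 1.44 for the brightest Fgfr2 probe set. Where these probes lie relative to the floxed exons was not analysed here, so they do not check the genotypes.

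Promoter sequence was read for the members from RefSeq windows on GRCm38.p6, which held 12 windows for 8 of the 10 genes. Etv4 and Ets1 had none. The 250 bases before each listed start were searched on both strands for the octamers bound by Cic (TGAATGAA, TGAATGGA, TGAATGAG, TGAATGGG, TCAATGAA, TCAATGGA, TCAATGAG and TCAATGGG), for the ETS word GGAAGT, and for the CArG box, the serum response factor site. No octamer overlapped a GGAAGT word in the members. The lines below show the start regions of Etv5, the member with the largest difference among the brightest probe sets, of Etv6, the other member with an octamer, and of Gabpa, the member whose brightest probe set differed least. Each is the strand of the gene, from 5′ to 3′, and ends at the base before the start. Capitals mark Cic octamers in Etv5 and Etv6 and GGAAGT in Gabpa.
Etv5, first start, chr16:22439571-22439820, minus strand: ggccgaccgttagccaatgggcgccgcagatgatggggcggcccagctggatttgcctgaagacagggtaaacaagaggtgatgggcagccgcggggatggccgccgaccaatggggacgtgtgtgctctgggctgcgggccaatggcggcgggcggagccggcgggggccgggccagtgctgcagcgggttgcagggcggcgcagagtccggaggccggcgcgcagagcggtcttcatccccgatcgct
Etv5, second start, chr16:22438369-22438618, minus strand: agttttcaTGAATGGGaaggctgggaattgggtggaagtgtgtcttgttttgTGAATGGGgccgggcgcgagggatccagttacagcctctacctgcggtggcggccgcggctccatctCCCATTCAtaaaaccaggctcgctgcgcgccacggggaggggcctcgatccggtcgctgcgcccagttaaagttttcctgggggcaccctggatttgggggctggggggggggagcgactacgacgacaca
Etv6, chr6:134035450-134035699, plus strand: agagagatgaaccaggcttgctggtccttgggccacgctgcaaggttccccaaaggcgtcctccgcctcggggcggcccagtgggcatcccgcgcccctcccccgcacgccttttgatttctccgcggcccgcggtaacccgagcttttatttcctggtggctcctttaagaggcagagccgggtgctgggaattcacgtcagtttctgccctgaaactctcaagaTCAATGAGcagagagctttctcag
Gabpa, chr16:84834874-84835123, plus strand: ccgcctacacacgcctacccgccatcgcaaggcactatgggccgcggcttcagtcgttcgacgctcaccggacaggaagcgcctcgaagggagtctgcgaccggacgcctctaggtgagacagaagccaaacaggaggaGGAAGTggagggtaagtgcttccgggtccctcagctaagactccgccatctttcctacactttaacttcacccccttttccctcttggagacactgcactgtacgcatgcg

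The window before the second Etv5 start held 3 octamers, each TGAATGGG, of which 2 lay on the strand of the gene and 1 on the other. Of 32851 RefSeq windows of this length, 5.86% held at least 1 octamer and 19 windows (0.0578%) held 3 or more. The window before the first Etv5 start held 0 octamers. Etv6 held 1, TCAATGAG, from 24 to 17 bases before its start. Among the FGF feedback genes set beside the members below, the Spry2 and Dusp6 windows held 1 octamer each. GGAAGT was found in 19.7% of all windows. It occurred in the second Etv5 window (once, between the first and the second octamer), the Gabpa window (once) and all 3 Elk4 windows. A CArG box, found in 1.47% of all windows, was in none of the members' windows, those of Elk1, Elk3 and Elk4 included. These matches describe the letters only, and no binding was measured.

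No tested probe set of the ETS genes passed the comparison between mutant and control, and the members did not move one way. In limma with Benjamini-Hochberg adjustment over all 27022 probe sets tested, 0 of the 18 member probe sets passed an adjusted p of 0.05, against 0% of all probe sets. At an unadjusted p under 0.05, 0 of the 18 passed, against 5.57% of all (3.02% higher and 2.55% lower in the mutants). Of the 18, 10 had higher and 8 lower values in the mutants, and the median log2 difference was 0.07, beside -0.05 over all probe sets tested, of which 54.5% had lower values. Groups were fully separated for 2 of the 18, both lower in the mutants (1 Elk1 and 1 Elk3 probe set), against 13.5% of all in either direction, 6.39% in this direction and 7.08% in the other. The members' adjusted p ran from 0.852 to 0.983. Without mutant 8711 there were 12 higher and 6 lower, the median was 0.16, and 7 did not overlap, against 25.4% of all probe sets over these 5 arrays. At an unadjusted p under 0.05, 2 of the 18 then passed, both higher (1 Ets1 and 1 Elk3 probe set), against 8.71% of all in either direction and 5.01% higher. After adjustment 0 of the 18 passed, against 0.00370% of all.

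**Figure D1:**
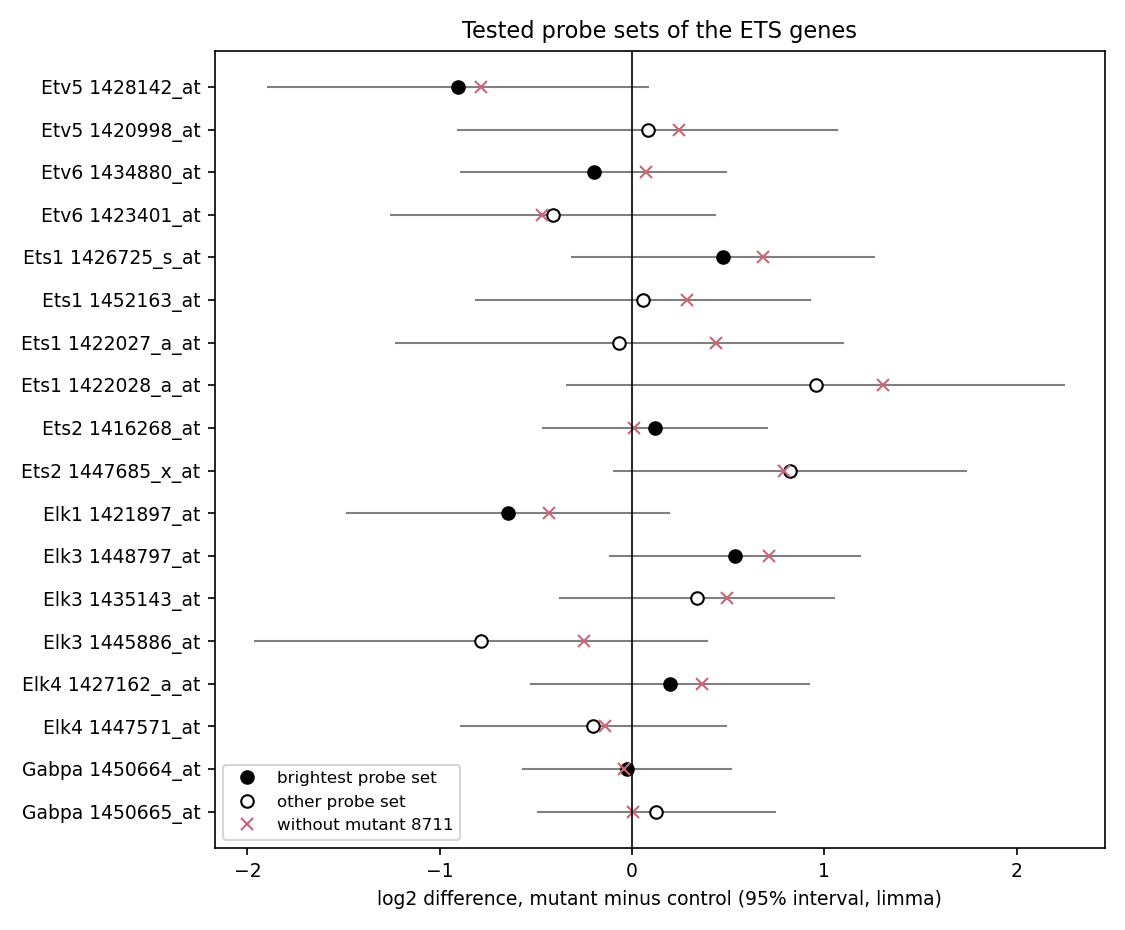
The log2 difference (mutant minus control, horizontal axis) of each of the 18 tested probe sets of ETS genes, with its 95% interval from limma. Filled points are the brightest probe set of each gene, open points the others, and crosses the same difference without mutant 8711. Every interval spans 0, and probe sets of Etv5, Ets1, Elk3, Elk4 and Gabpa lie on both sides of it.

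Among the PEA3 group, Etv5 had the largest difference of the brightest probe sets, and it was lower in the mutants. Its brightest probe set (1428142_at) read 88.7 (array 8711), 55.6 (9216) and 115.3 (9266) in the controls, against 36.8, 32.8 and 68.1 for mutants 8711, 9216 and 9266. Values of every probe set below follow this array order. The groups overlapped, because mutant 9266 lay above control 9216. Controls averaged 86.5 ± 29.9 (SD, n = 3) and mutants 45.9 ± 19.3 (SD, n = 3), and the difference on the log2 scale was -0.90 (SE 0.42, 95% interval -1.89 to 0.09), on a scale of log2 of the intensity plus 1.7. The limma adjusted p was 0.852, and 7.46% of all probe sets tested had a smaller p. With 1 array left out the difference ran from -1.22 (without mutant 9266) to -0.67 (without control 9266), and it was -0.79 without mutant 8711.

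The 3 Etv5 probe sets did not give the same picture. The second tested one (1420998_at) was dim, with control values of 23, 16.2 and 9.9 against mutant values of 12.9, 21.4 and 16.3, fully overlapping, and a log2 difference of 0.08 (95% interval -0.90 to 1.06), or 0.24 without mutant 8711. The last (1450082_s_at), which the annotation ties to the same sequence record as the second, did not pass the filter. It had control values of 16.1, 11.1 and 11.2 against mutant values of 1.3, 2.0 and 3.6. Its groups did not overlap, and all of its values but that of control 8711 were under the filter level of 15.1, so no fold is given. In a limma fit with no filter its adjusted p was 0.655. Of all 45037 probe sets before the filter, 5.18% were lower in the mutants without overlap.

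**Figure D2:**
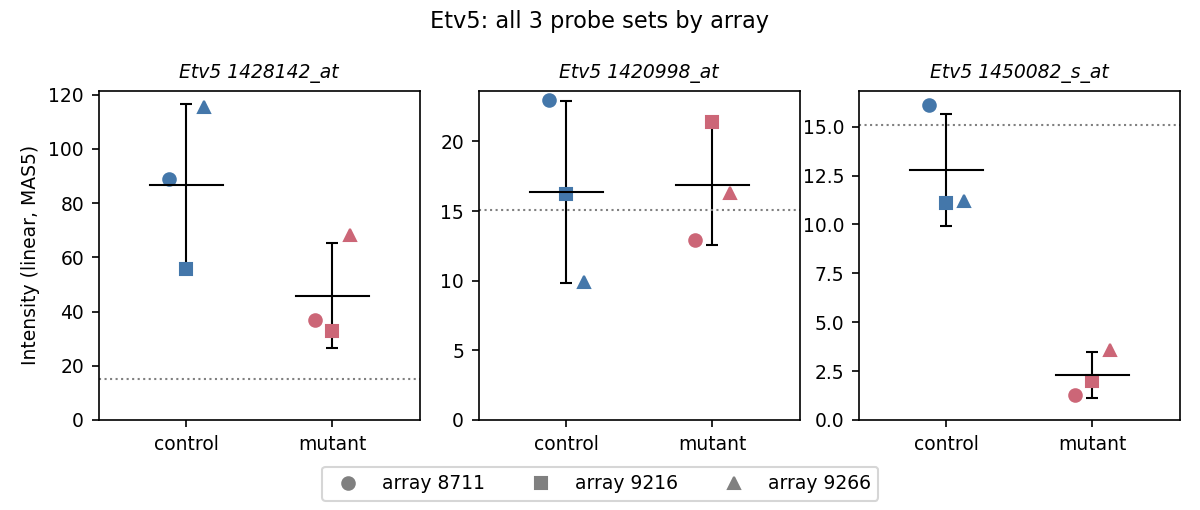
Linear intensity (vertical axis) of the 3 Etv5 probe sets in each array, with symbols for the array number, the mean as a bar and the SD as whiskers. The dotted line is the filter level of 15.1. The mutants sit below the controls in the left panel but for 1 array, overlap them in the middle panel, and sit between 1.3 and 3.6 in the right panel, where the controls sit between 11.1 and 16.1.

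Etv4, the other PEA3 member with probe sets of its own, was near the bottom of the measured range in both groups. Its brighter probe set had control values of 13.4, 13.5 and 8.1 against mutant values of 7.4, 17 and 7.9, and its second had from 1.8 to 4.6 in the controls and from 2.2 to 4.3 in the mutants. The groups overlapped for both, and neither was tested or given a fold. A difference in Etv4 could not be read at this intensity, and no genes are ranked by likeness to it.

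The 5 genes whose log2 values over the 6 arrays were most like those of the brightest Etv5 probe set were 2810029C07Rik, Lrrc66, Igsf9, Ints11 and Actr5, with Pearson r from 0.988 to 0.997. Their own log2 differences lay between -1.19 (Igsf9) and -0.49 (Ints11). Of 12281 genes compared, 89 had r over 0.95 with Etv5, the 6 arrays being the same for every gene.

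The receptor and feedback genes of the same pathway give a scale for Etv5. For Fgfr1, the brightest probe set gave control values of 246.6, 89.8 and 238.1 against mutant values of 59.9, 64.1 and 141.4. In this probe set, as in the brightest Etv5 one, control 9216 was the lowest control and mutant 9266 the highest mutant. The dimmer Fgfr1 probe sets tested differed from this order in the mutants. They had mutant values of 13.9, 20.1 and 1.5 and of 38.8, 33 and 24.8, with mutant 9266 lowest. Control 9216 was the lowest control there too. Spry2, an inhibitor that FGF induces, had a log2 difference of -0.96 (SE 0.31), Dusp6, an ERK phosphatase, of -1.01 (SE 0.40), and Fgf15, an FGF of retinal progenitors, of -1.74 (SE 0.27). In the brightest probe set of these 3 genes every mutant value was below every control value, which was not so for the brightest Etv5 one. A dim Spry2 probe set, which did not pass the filter, overlapped. Of 20 feedback and target genes tested, 6 were fully below and 2 fully above, beside 667 and 1159 of all 12282 genes. The limma adjusted p values of Spry2, Dusp6 and Fgf15 were 0.744, 0.852 and 0.356, so none passed. Whether the difference in Etv5 was smaller or larger than theirs was not tested.

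Markers of the retinal cell types differed between the same arrays. Of 10 neural retina progenitor markers tested, 9 were lower in value in the mutants (median -1.09 on the log2 scale), and the summed intensity of the 11 measured ran from 9027 to 10934 in controls and from 5736 to 7169 in mutants. Of 12 retinal pigment epithelium markers, 11 were higher in value (median 1.0), and their sum ran from 14293 to 16553 in controls and from 21863 to 36529 in mutants. Neither list had a marker that passed in limma after adjustment. The part of these cell types in the Etv5, Fgf15, Spry2 and Dusp6 values was not tested.

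Etv6, the repressor, had 2 tested probe sets, both with overlapping groups. The brighter had control values of 358.9, 358.3 and 393.0 against mutant values of 221.4, 329.0 and 458.4. The mutants lay on both sides of the narrow control range, with mutant 8711 lowest and mutant 9266 highest. The log2 difference was -0.20 (SE 0.29, 95% interval -0.89 to 0.49), and it was 0.07 without mutant 8711. The dimmer had -0.41 (SE 0.36) and -0.47 without that array.

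Ets1 had 4 tested probe sets. The brightest (1426725_s_at) had control values of 178.3, 99.8 and 132.3 against mutant values of 138.4, 248.7 and 184.9, and controls averaged 137 ± 39.4 (SD, n = 3) and mutants 191 ± 55.4 (SD, n = 3). Only mutant 8711 lay within the control range, and the log2 difference was 0.47 (SE 0.33, 95% interval -0.31 to 1.26), or 0.68 without mutant 8711 and 0.26 without mutant 9216. A probe set of about the same brightness (1452163_at) had control values of 177.8, 90.2 and 173.4 against mutant values of 106.2, 183.1 and 161.1. There the groups overlapped widely, with a log2 difference of 0.06 (SE 0.37), or 0.28 without mutant 8711. The 2 dim probe sets had -0.07 (SE 0.49) and 0.95 (SE 0.55), or 0.43 and 1.30 without mutant 8711. Control 9216 was the lowest array in both bright probe sets.

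Ets2, the close relative of Ets1, had control values of 392.6, 265.1 and 383.5 against mutant values of 433.7, 313.0 and 379.0 in its brightest probe set. The ranges overlapped over most of their length, and the log2 difference was 0.12 (SE 0.25, 95% interval -0.46 to 0.70), or 0.01 without mutant 8711. This interval holds changes of either sign. A dim Ets2 probe set had control values of 24.3, 31.3 and 16.8 against mutant values of 44.6, 30.5 and 57.0. It had a difference of 0.82 (SE 0.39, 95% interval -0.09 to 1.74), with mutant 9216 just below the highest control.

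The brightest probe sets of the ternary complex factors differed in sign, lower in the mutants for Elk1 and higher for Elk3 and Elk4. Elk3 and Elk4 each also had a tested probe set of the opposite sign. Whether these genes differed from one another was not tested. Elk1 had control values of 35.5, 25 and 26.9 against mutant values of 12.8, 20.0 and 21.9 in its 1 tested probe set, without overlap. Controls averaged 29.1 ± 5.59 (SD, n = 3) and mutants 18.2 ± 4.80 (SD, n = 3), and the difference on the log2 scale was -0.65 (SE 0.35, 95% interval -1.48 to 0.19), with a limma adjusted p of 0.852. Mutant 8711 was the lowest and under the filter level, and without it the difference was -0.43, still without overlap. The other 2 Elk1 probe sets did not pass the filter and ran from 0.9 to 9.2 over all arrays.

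Elk3, a repressor until ERK phosphorylates it, had control values of 106.3, 88.6 and 121.5 against mutant values of 119.0, 165.3 and 179.7 in its brightest probe set (1448797_at). Only mutant 8711 fell within the control range. Controls averaged 105 ± 16.5 (SD, n = 3) and mutants 155 ± 31.7 (SD, n = 3), and the difference on the log2 scale was 0.54 (SE 0.28, 95% interval -0.12 to 1.19), and 0.71 without mutant 8711, where the unadjusted limma p was 0.0229 and the adjusted p 0.470. The next brightest probe set had control values of 93.0, 68.4 and 110.0 against mutant values of 90.4, 117.3 and 135.0, a difference of 0.34 (SE 0.30), or 0.49 without mutant 8711. Another tested probe set (1445886_at) went the other way, with control values of 44.1, 41.0 and 41.8 against mutant values of 10.5, 38.2 and 32.6. Its difference of -0.78 (SE 0.50) was -0.25 without mutant 8711.

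Elk3 and Ets1 are also expressed outside the optic cup, in mesenchyme and vessels, so marker levels are given beside them. All 9 periocular mesenchyme markers tested had higher values in the mutants, and their summed intensity was from 1053 to 2277 in the controls and from 2762 to 3132 in the mutants. On the log2 scale relative to the control mean, that list averaged 0.31, -0.78 and 0.47 in control arrays 8711, 9216 and 9266 and 0.73, 0.76 and 0.98 in the mutants. Elk3 stood at 0.02, -0.24 and 0.21 and at 0.18, 0.65 and 0.77, and Ets1 at 0.42, -0.41 and -0.01 and at 0.06, 0.89 and 0.47. Control 9216 was the lowest array for the list and for both genes. Of 11 endothelial markers tested, 4 had higher and 7 lower values in the mutants, and the median log2 difference was -0.01. Without mutant 8711, 7 were higher and 4 lower, and the median was 0.22. On the scale above, the list averaged -0.67, -0.09 and 0.24 in mutants 8711, 9216 and 9266. The summed intensity of the 13 measured was from 503 to 931 in the controls and from 391 to 769 in the mutants. Pecam1, a defining endothelial marker, did not pass the filter. The part of these cells in the Elk3 and Ets1 values was not tested.

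**Figure D3:**
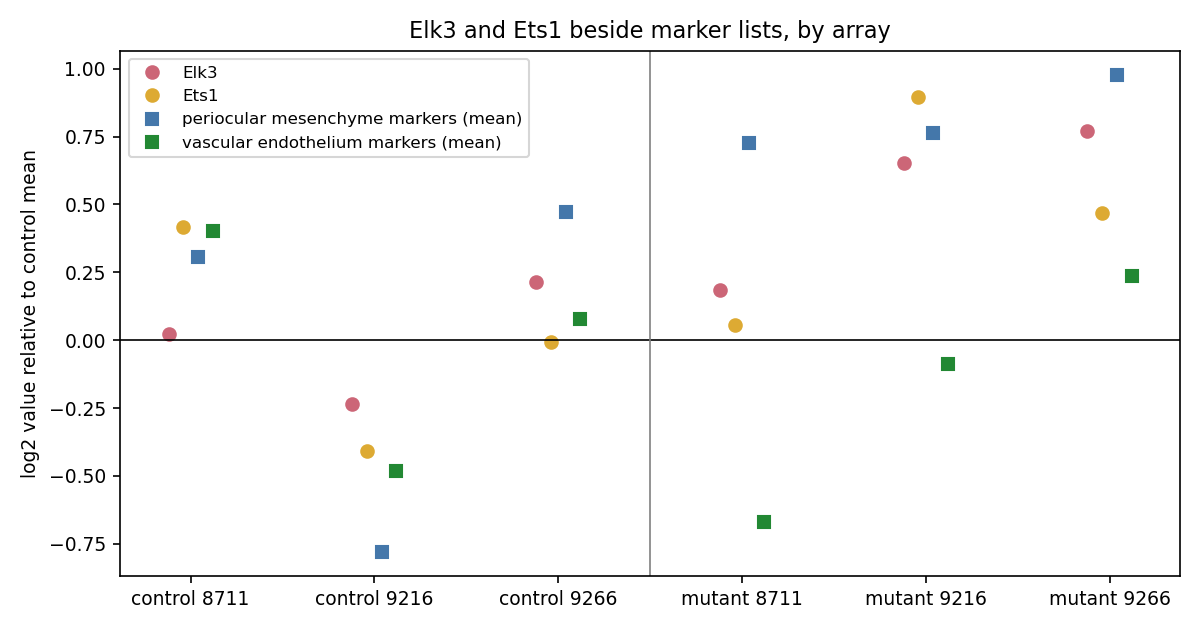
The log2 value relative to the control mean (vertical axis) in each of the 6 arrays for the brightest Elk3 and Ets1 probe sets (circles) and for the mean over 9 periocular mesenchyme and 11 vascular endothelium markers (squares). Control 9216 is the lowest control for all 4 series, and the mesenchyme markers lie between 0.73 and 0.98 in the mutants.

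Elk4, the remaining ternary complex factor, had control values of 234.4, 337.9 and 188.3 against mutant values of 224.7, 367.6 and 273.9 in its brightest probe set. The 9216 array was the highest of both groups, and the ranges overlapped. The log2 difference was 0.20 (SE 0.30, 95% interval -0.52 to 0.92), or 0.36 without mutant 8711. With 1 array left out it ran from 0.0071 (without control 9266) to 0.43 (without control 9216). The second tested probe set had control values of 41.3, 35.8 and 33.8 against mutant values of 29.1, 31.1 and 35.5, a difference of -0.20 (SE 0.29). The other 2 did not pass the filter.

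Gabpa had the smallest difference of the brightest probe sets. It had control values of 778.7, 1062.5 and 809.3 against mutant values of 877.2, 1045.9 and 692.8, and controls averaged 883.5 ± 156 (SD, n = 3) and mutants 872 ± 177 (SD, n = 3). Both groups covered about the same range, and the log2 difference was -0.02 (SE 0.23), or -0.04 without mutant 8711. The 95% interval of -0.57 to 0.52 does not exclude a modest change either way. The second probe set had 0.13 (SE 0.26), or 0.0044 without mutant 8711.

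**Figure D4:**
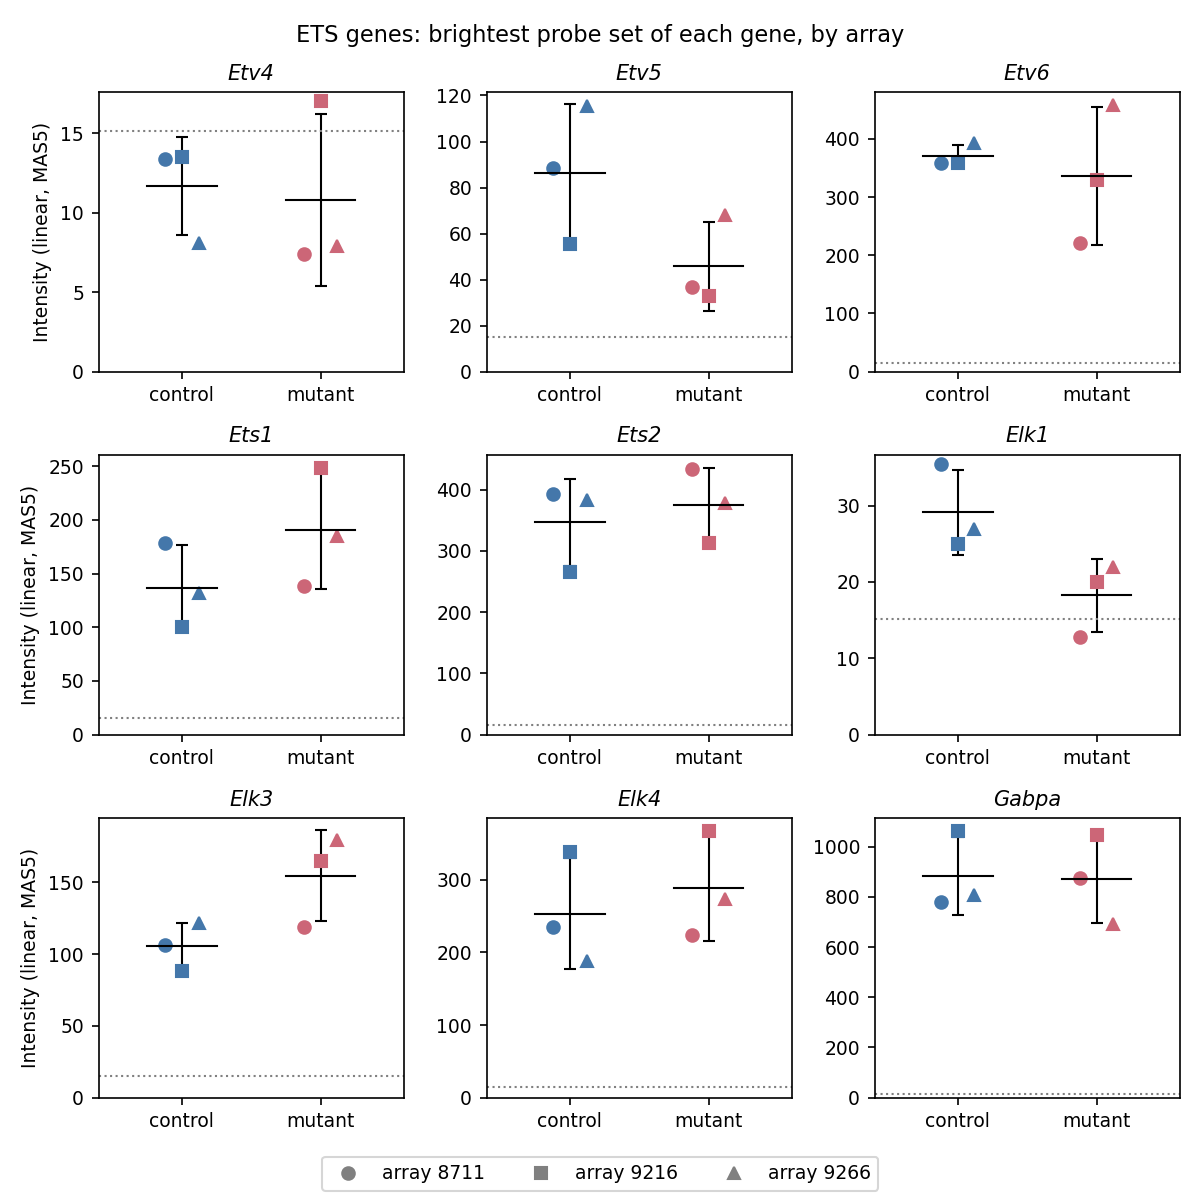
Linear intensity (vertical axis, from 0) of the brightest probe set of each of the 9 ETS genes in each array. Symbols give the array number, bars the mean, whiskers the SD of 3 arrays, and the dotted line the filter level of 15.1. The Elk1 groups do not overlap, the Etv5 and Elk3 groups overlap by 1 mutant array each, and Etv4 lies around the dotted line or below it.

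The remaining ETS family genes had overlapping groups in every case tested. Of 15 measured, 9 passed the filter, of which 7 had higher and 2 lower values in the mutants, and the median log2 difference was 0.35, beside 0.03 over all genes tested by their brightest probe set. None passed in limma, 0 after adjustment and 0 at an unadjusted p under 0.05. Of all 12282 genes tested by their brightest probe set, 541 were higher and 309 lower at that unadjusted p. Groups without overlap were found for 1159 higher and 667 lower genes of the 12282. In the 9 family genes tested, the smallest p belonged to Elf2, at -0.43 (SE 0.26), and to Fli1, a factor of endothelial and blood cells, at 0.45 (SE 0.32). A second Elf2 probe set had -0.83 (SE 1.23), or 0.69 without mutant 8711. Erg, an endothelial factor, had control values of 25, 8.9 and 12.9 against mutant values of 22.0, 17.6 and 26.9, a difference of 0.55 (SE 0.44). Spi1, the master regulator of macrophages, had 0.36 (SE 0.32), with control 9216 lowest in both genes. Macrophage markers had 7 of 11 higher in the mutants, and the median was 0.40. Their summed intensity was 1605 to 2265 in the controls and 2520 to 3048 in the mutants. Their part in the Spi1 value was not tested.

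Among partners and regulators of ETS factors, 9 of 17 had higher and 8 lower values in the mutants, and the median log2 difference was 0.03 (0.0058 without mutant 8711). In limma 0 passed after adjustment. At an unadjusted p under 0.05, 2 were higher and 1 lower, beside 541 higher and 309 lower of all 12282 genes tested. Tle1, a corepressor, had control values of 173.7, 221.8 and 237.5 against mutant values of 53.3, 83.7 and 97.4, far apart, with a difference of -1.44 (SE 0.31). A dimmer Tle1 probe set had -0.42 (SE 0.31). Id2, an inhibitor of helix-loop-helix factors that also binds ETS domains, had 0.51 (SE 0.17), while its dimmer probe sets had 0.20 (SE 0.31) and -0.37 (SE 0.39), or 0.40 and -0.16 without mutant 8711. Atxn1, a partner of Cic, had 0.81 (SE 0.31). Its dim second probe set had -0.01 (SE 0.75), or 0.87 without mutant 8711. Cic itself had control values of 216.3, 110.7 and 239.0 against mutant values of 47.0, 174.3 and 268.3. Its groups overlapped, with mutant 8711 lowest of all arrays, and its difference was -0.45 (SE 0.66), or 0.27 without mutant 8711.

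FGF and ERK feedback and target genes were mostly lower in value. Of 20 tested, 16 had lower and 4 higher values in the mutants, and the median log2 difference was -0.44. None passed in limma after adjustment, while 8 lower and 1 higher gene had an unadjusted p under 0.05. Among all 12282 genes, each taken by its brightest probe set, that level was met by 309 on the lower side and 541 on the higher. By sign alone, 5704 of them had a difference below 0 and 6578 above. Within the feedback and target list, the smallest p belonged to Fgf15, Bhlhe40 (1.25, SE 0.27), Ccnd1, the cyclin D1 gene (-1.55, SE 0.44), and Spry2. Without mutant 8711, 15 were lower and the median was -0.65. The list was chosen with earlier results of these arrays known, so the count is no independent evidence of a direction. Fgf15 and Ccnd1 are also on the neural retina progenitor list, of which 9 of 10 were lower in value, and the part of those cells in this list was not tested.

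Targets of serum response factor and the ternary complex factors went both ways. Of 12 tested, 6 had higher and 6 lower values in the mutants, and the median log2 difference was 0.06 (0.22 without mutant 8711). In limma 0 passed after adjustment. At an unadjusted p under 0.05, 2 were higher and 1 lower, beside 541 higher and 309 lower of all 12282 genes tested. Acta2, smooth muscle actin, had 1.24 (SE 0.32), and Vcl, which encodes vinculin, had 0.63 (SE 0.21). Ier2, an immediate early gene, had -1.32 (SE 0.44), or -0.85 without mutant 8711. All 9 periocular mesenchyme markers tested were higher in value too, and the part of those cells in the Acta2 and Vcl values was not tested. In the ERK cascade, 6 of 14 genes tested had higher and 8 lower values in the mutants, and the median was -0.0055 (-0.07 without mutant 8711). There too 0 passed after adjustment, and Gab1, a docking protein of receptor signalling, was the 1 gene with an unadjusted p under 0.05 (0.67, SE 0.22).

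**Figure D5:**
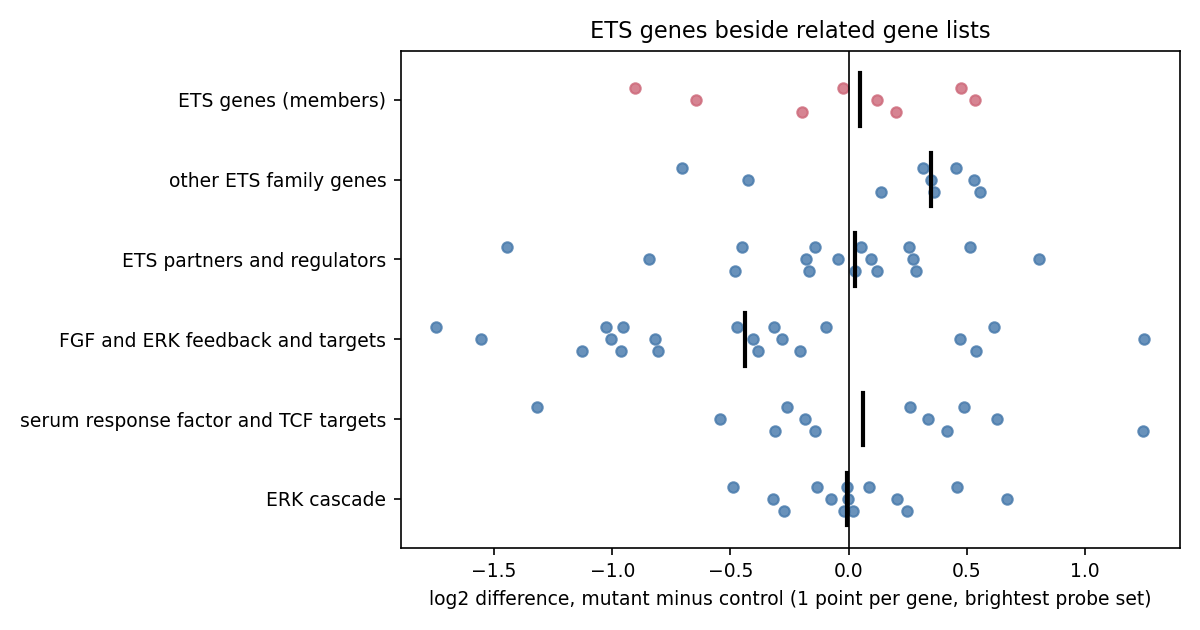
The log2 difference (mutant minus control, horizontal axis) of the brightest probe set of each tested gene, 1 point per gene, for the 8 ETS genes and for the 5 related gene lists. The black bar is the median of each list. The ETS genes lie on both sides of 0, from -0.90 to 0.54, while the median of the FGF and ERK feedback list is -0.44.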

How the data were processed

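The authors deposited linear intensity for 45101 probe sets on each array. MAS5 is named in the submitters' processing notes, with no settings. Trimmed means lay between 149.1 and 150.0 on all arrays, so no normalization was added. Median intensities were not equal, at 18.1 for mutant 8711 and from 28.7 to 34.6 for the other arrays. Detection calls were not used here. After leaving out 64 control probe sets, values were transformed as log2(value + 1.7), the 10th percentile of all values, which understates the change of dim genes. Probe sets with a mean under the 40th percentile (log2 4.07) were left out. The brightest probe set stood for a gene. Groups were compared with limma 3.58.1 (trend and robust, statmod 1.5.0) in R 4.3.3, tested on simulated data. Figures used Python 3.11.15 and matplotlib 3.10.9. The members and lists were chosen with earlier results of these data known. Outside the members, genes at an unadjusted p under 0.05 were named, at most 4 per list, or else the 2 with the smallest p, with Spry2, Dusp6, Fgf15, Fgfr1 and Fgfr2. Erg, Spi1, Cic, Pecam1, Six6, Sox2 and Pax6, the search words and 2 probe sets under the filter were chosen after values were seen. So was a dim Spry2 probe set. Alternatives were other added values, normalizations, filters and variance models, array weights, a block, gene means, a threshold of 0.10, and arrays left out.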

Additional observations from a re-analysis of the deposited data

How the results depend on the processing

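Signal over background limits the 9 probe sets under the filter, both of Etv4 included, and the spread of 3 arrays limits the rest. No member probe set was called under any alternative run, with arrays left out 1 at a time included (0 to 0). Over all probe sets, 184 were called with array weights (100 higher and 84 lower), 1 with both 8711 arrays left out, and 0 to 1 with 1 array left out. The weights were uneven: control 8711 had 5.98, against 0.63 for control 9216 and 1.52 for control 9266, and mutant 8711 had 0.15. The 1 call without mutant 8711 was Xist, a transcript of female cells, lower in the mutants (log2 difference -6.84). Embryo sex is not in the sample labels used here. Its part in the differences without mutant 8711, that of the X-linked Elk1 included, was not tested. The log2 difference of Etv5 stayed below 0 in all 18 alternatives (-1.22 to -0.41, the last as the mean of its tested probe sets), with adjusted p from 0.171 (array weights) to 0.999. Elk1 stayed below 0 in 17 (-0.78 to -0.29), and Ets1 (0.26 to 0.89) and Elk3 (0.03 to 0.72) above 0 in 18, Elk3 being at 0.03 as the mean of its tested probe sets, which disagree. Gabpa turned to 0.086 with median centring, 0.19 with array weights, 0.11 without control 9216, 0.13 without mutant 9266 and 0.051 as the mean of its probe sets. Ets2 turned to -0.17 with array weights and -0.061 without control 9216 (-0.061 to 0.25 with 1 array left out), Etv6 to 0.071 without mutant 8711 (-0.45 to 0.071 with 1 array left out) and 0.049 without both 8711 arrays, and Elk4 to -0.00168 as the mean of its probe sets. Median centring moved the median log2 difference of all probe sets from -0.05 to 0.06. For these differences near 0 the cause was not tested. The numbers in the titles were not taken as pairs in the main comparison. Deviations of same-numbered arrays correlated at 0.05, 0.48 and -0.11, and not every array correlated best with its own number. With 3 arrays per group and mutant 8711 apart, these correlations cannot decide whether same-numbered arrays belong together. With the number as a replicate block, 0 probe sets and 0 members were called, and Etv5 kept -0.90 (adjusted p = 0.765). Counts without mutant 8711 were chosen after seeing the data, and there the members without overlap went from 2 to 7.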
